A study of Homo sapiens with 18 samples.

Results

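Transcripts of 8 genes for the G1 cyclins and their kinases were followed in IMR90 cells, a line of human lung fibroblasts: the D-type cyclins CCND1, CCND2 and CCND3, the E-type cyclins CCNE1 and CCNE2, and the kinases CDK2, CDK4 and CDK6. They were chosen by symbol from the 56269 genes of the expression table, each matched 1 row, and all 8 passed the filter on low values, with 13686 genes tested in all. The study asked whether hyaluronan (HA) made by skin fibroblasts of the naked mole-rat (NSF-HA) changes how cells meet oxidative stress, and whether this depends on the length of the polymer. The pre-incubation lasted 6 h, in PBS or in HA at 20 μg/ml, and the HA was either cNSF (control NSF-HA, mixed with heat-inactivated hyaluronidase and heated) or fNSF (NSF-HA partially fragmented with hyaluronidase before heating). They were collected then, or the HA was removed, tert-butyl hydroperoxide (tBHP), an oxidant, was given at 200 μM for 1 h, and cells were collected 6 h after its start. Each of the 6 groups (PBS, cNSF and fNSF, without and after tBHP) had 3 libraries, 18 in all. The study's methods call its replicates biological throughout, and the labels do not say which libraries came from separate cultures, so the p-values measure the spread between these libraries. All cells without tBHP were collected at the end of the pre-incubation, and the effects of tBHP and of the later collection cannot be told apart.

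D-type cyclins are made in response to growth signals, and in G1 they bind CDK4 and CDK6, whose activity starts the phosphorylation of the retinoblastoma protein. E-type cyclins bind CDK2 later in G1, complete that phosphorylation and help to open the S phase. CDK inhibitors such as p21 hold these complexes back in fibroblasts that stop dividing after damage. The kinases are controlled mostly as proteins, by binding of cyclins and inhibitors and by phosphorylation, which RNA levels do not show.

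The libraries held between 20261103 and 26287660 reads on genes, with medians of 22861463 without tBHP and 21069460 after it. The summed level of 8 fibroblast markers was 452013 to 717947 normalized counts per library (reads on a gene over the size factor of its library), against at most 9.85 for 5 epithelial markers, 27.2 for 4 endothelial markers and 13.7 for 4 blood cell markers. The defining epithelial genes KRT5, SFTPC and SFTPB and the endothelial gene CDH5 were at 0 in all libraries. Replicates lay further apart after tBHP, as the median SD of all genes on the log2 scale was 0.063 to 0.070 in the 3 groups without tBHP and 0.15 to 0.22 in the 3 groups after it. Library preparation did not mark strand, so reads from a gene and from an overlapping gene on the other strand could not be told apart, which touches CCNE2 and CDK4 most.

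Promoters of 4 of the 8 genes were taken from the RefSeq table of sequences around transcription start sites (GRCh38.p14). Each sequence held 300 bases around a start, most of them before it. They had 3 starts for CCND3, 2 for CDK6 and 1 each for CDK4 and CCNE1, while CCND1, CCND2 and CDK2 had no entry. The promoter of CCNE2 was not searched, so nothing is said here about its motifs. The promoters of CCNE1 and CDK6, whose transcripts fell after tBHP, and of CDK4, whose transcript did not change beyond the test, are shown 5′ to 3′ on the strand of the gene. Capitals mark the GC box (GGGCGG on either strand), an element bound by SP1, and the NRF2 core (TGACNNNGC on either strand), part of the antioxidant response element.
CCNE1, chr19:29811741-29812040, plus strand: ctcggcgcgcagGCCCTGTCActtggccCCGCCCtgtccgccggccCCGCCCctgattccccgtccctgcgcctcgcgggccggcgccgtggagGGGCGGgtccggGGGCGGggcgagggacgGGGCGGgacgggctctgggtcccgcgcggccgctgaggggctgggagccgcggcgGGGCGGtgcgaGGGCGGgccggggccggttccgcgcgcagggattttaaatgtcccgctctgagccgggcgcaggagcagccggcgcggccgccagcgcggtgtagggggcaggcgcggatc
CDK6, chr7:92836524-92836823, minus strand: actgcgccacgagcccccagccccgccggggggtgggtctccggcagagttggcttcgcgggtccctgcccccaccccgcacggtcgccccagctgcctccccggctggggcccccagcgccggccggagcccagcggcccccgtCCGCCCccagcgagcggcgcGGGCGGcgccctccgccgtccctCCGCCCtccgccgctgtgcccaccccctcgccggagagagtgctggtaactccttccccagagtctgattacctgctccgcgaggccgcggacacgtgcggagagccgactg
CDK4, chr12:57752261-57752560, minus strand: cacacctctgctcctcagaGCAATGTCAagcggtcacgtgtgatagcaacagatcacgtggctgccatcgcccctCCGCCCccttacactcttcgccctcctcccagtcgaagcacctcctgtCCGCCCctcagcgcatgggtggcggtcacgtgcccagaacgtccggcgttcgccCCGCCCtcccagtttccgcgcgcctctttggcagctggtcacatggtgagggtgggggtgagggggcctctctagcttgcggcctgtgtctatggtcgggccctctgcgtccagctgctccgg

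The CCNE1 promoter held 7 GC boxes, the CDK6 promoter shown held 3 and that of CDK4 held 3. The other CDK6 start (chr7:92833910-92834209) held 0, and the 3 CCND3 starts held 5, 4 and 0. GC boxes were in 45.0% of the 35116 promoters of the table. The NRF2 core occurred in the CCNE1 and CDK4 promoters (1 match each) and not in the CDK6 promoter, against 13.3% of all promoters. No match to the E2F element (TTTGGCGC, TTTCGCGC, TTTGCCGC or TTTCCCGC), the AP-1 element (TGANTCA) or the cyclic AMP response element (CRE, TGACGTCA) was found in any of the 7 promoters of the 4 genes. Those letters occurred in 3.31%, 7.71% and 1.85% of all promoters, respectively. The motifs do not overlap each other in the 3 promoters shown.

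CCND1, which encodes cyclin D1 (chr11:69641087-69654474, plus strand), was the most abundant of the 8 transcripts per length. Without tBHP, its level in normalized counts was 28179, 28428 and 28251 in PBS cells, 27318, 27827 and 27896 in cNSF cells, and 29158, 28783 and 28532 in fNSF cells. After tBHP, the level was 20642, 20604 and 19794 in PBS cells, 19318, 18678 and 18288 in cNSF cells, and 18275, 19478 and 18750 in fNSF cells. The 9 libraries after tBHP lay below all 9 libraries without it. CCND1 fell by 28.1% in PBS cells (log2 change −0.48 ± 0.048 SE, adjusted p = 3.2e-07, limma), fell by 32.2% in cNSF cells (−0.56 ± 0.048, adjusted p = 4.6e-08) and fell by 34.7% in fNSF cells (−0.61 ± 0.048, adjusted p = 1.5e-08). These were the tightest changes among the members, and the replicate SD of CCND1 never passed 3.22% of the mean of its group. In PBS cells 20.0% of the genes tested had a log2 change as low or lower. The gene LTO1 (listed as ORAOV1) shares 10.3% of the exon bases of CCND1 on the other strand and was at 625 normalized counts in PBS cells without tBHP and 619 after it.

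CCND2, which encodes cyclin D2 (chr12:4273772-4305350, plus strand), moved the opposite way, from a far lower level. Without tBHP, its normalized counts were 61.8, 55.1 and 63.1 in PBS cells, 62, 49.8 and 52.7 in cNSF cells, and 46.1, 67 and 48.4 in fNSF cells. After tBHP, they were 101, 101 and 74.4 in PBS cells, 76.9, 83.2 and 65.1 in cNSF cells, and 90.3, 101 and 61.5 in fNSF cells. The groups did not overlap in PBS and cNSF cells, whereas in fNSF cells the third library after tBHP was below the second library without it. The gene AC008012.1 lies on the same strand, shares 13.8% of the exon bases of CCND2 and was not in the expression table. CCND2 rose 1.52-fold in PBS cells (log2 change 0.60 ± 0.20 SE, adjusted p = 0.016, limma) and 1.54-fold in fNSF cells (0.63 ± 0.20, adjusted p = 0.015). In cNSF cells the ratio was 1.36 and did not pass the test (0.44 ± 0.20, adjusted p = 0.066). The difference between the responses of cNSF and PBS cells was itself −0.16 (95% interval −0.74 to 0.42), so the responses were not shown to differ. With 47 to 103 reads per library, the call of CCND2 was the least stable of the members: leaving out 1 library lowered it below the threshold for 3 of 6 libraries in PBS cells (PBS replicate 2, and PBS replicates 1 and 2 after tBHP) and for 4 of 6 in fNSF cells (fNSF replicates 1 and 3, and fNSF replicates 1 and 2 after tBHP), with log2 changes of 0.53 to 0.54 and 0.48 to 0.56, respectively.

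CCND3, which encodes cyclin D3 (chr6:41934933-42050357, minus strand), did not pass the test in any pre-incubation as first fitted. Without tBHP, the normalized counts were 2205, 2270 and 2115 in PBS cells, 2300, 2134 and 2203 in cNSF cells, and 2295, 2231 and 2249 in fNSF cells. After tBHP, they were 2598, 2115 and 2333 in PBS cells, 2411, 2486 and 2560 in cNSF cells, and 2169, 1682 and 2444 in fNSF cells. The log2 change was 0.092 ± 0.10 SE in PBS cells, 0.17 ± 0.10 in cNSF cells and −0.12 ± 0.10 in fNSF cells (adjusted p = 0.47, 0.18 and 0.36, limma). The 95% interval reached from −0.12 to 0.31 in PBS cells, so a change of a size similar to that of CCND1 lay outside it. The spread was widest in fNSF cells after tBHP, where the second library was the lowest of all 18 at 1682. The direction depended on the processing: with the trend of each library on transcript GC content and length removed, the log2 change was −0.14 in PBS cells, −0.098 in cNSF cells and −0.26 in fNSF cells, and CCND3 passed the test as lower in PBS and fNSF cells.

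Together, the D-type cyclins kept CCND1 as the main transcript. Per kilobase of exons, CCND1 made up 93.3% to 94.0% (median 93.8%) of the 3 transcripts in the 9 libraries without tBHP and 89.4% to 93.0% (median 90.4%) after it. These ranges did not overlap. With the longest transcript of each gene as its length, the medians were 87.5% and 81.5%.

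CCNE1, which encodes cyclin E1 (chr19:29811898-29824308, plus strand), fell in all 3 pre-incubations. Without tBHP, its normalized counts were 267, 252 and 249 in PBS cells, 286, 243 and 254 in cNSF cells, and 301, 269 and 304 in fNSF cells. After tBHP, they were 134, 138 and 188 in PBS cells, 149.7, 162 and 159.6 in cNSF cells, and 144, 135 and 132 in fNSF cells. All 9 libraries after tBHP were below all 9 without it, and the highest of them was the third PBS library at 188. It fell by 40.6% in PBS cells (log2 change −0.75 ± 0.12 SE, adjusted p = 4.2e-05, limma), fell by 39.6% in cNSF cells (−0.73 ± 0.12, adjusted p = 6.4e-05) and fell by 52.7% in fNSF cells (−1.08 ± 0.12, adjusted p = 9.5e-07). The responses of cNSF and fNSF cells differed by 0.35 on the log2 scale (95% interval 0.0045 to 0.70, adjusted p = 0.71, limma), a difference that did not pass the test.

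CCNE2, which encodes cyclin E2 (chr8:94879770-94896678, minus strand), had the largest change of the members in each pre-incubation as first fitted. Without tBHP, its level in normalized counts was 619.9, 648 and 692 in PBS cells, 560.1, 616 and 608 in cNSF cells, and 639, 754 and 705 in fNSF cells. After tBHP, the level was 191, 266 and 218 in PBS cells, 222, 228 and 198 in cNSF cells, and 251, 406 and 244 in fNSF cells. The conditions did not overlap, and the second fNSF library after tBHP stood apart from the other 8 libraries after tBHP, which ranged from 191 to 266. CCNE2 fell by 65.8% in PBS cells (log2 change −1.55 ± 0.16 SE, adjusted p = 2.8e-07, limma), fell by 63.6% in cNSF cells (−1.46 ± 0.16, adjusted p = 6.6e-07) and fell by 58.1% in fNSF cells (−1.26 ± 0.16, adjusted p = 4.1e-06). Only 1.10% of the genes tested had a log2 change as low or lower in PBS cells. INTS8, a subunit gene of the Integrator complex on the other strand, shares 37.0% of the exon bases of CCNE2. Its own mean level moved the same way, from 856 normalized counts in PBS cells without tBHP to 434 after it, and the share of reads that either gene lent the other cannot be told apart.

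Per kilobase, CCNE2 made up 53.2% to 61.9% (median 58.1%) of both in the libraries without tBHP and 40.2% to 63.6% (median 46.3%) after it. The ranges overlapped through the second fNSF library, at 63.6%. The other 8 libraries after tBHP were all at or below 52.7%. This shift depended on the processing: with the trend of each library on transcript GC content and length removed, the log2 changes of CCNE1 and CCNE2 were −0.94 and −1.03 in PBS cells, −0.95 and −1.02 in cNSF cells, and −1.24 and −1.001 in fNSF cells, where CCNE1 then fell more than CCNE2.

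CDK6, 1 of the kinases that bind D-type cyclins (chr7:92604921-92836594, minus strand), fell, whereas its partner in that role, CDK4, did not pass the test. Without tBHP, the normalized counts of CDK6 were 5912, 6335 and 6484 in PBS cells, 5419, 5948 and 6115 in cNSF cells, and 6377, 6594 and 6542 in fNSF cells. After tBHP, they were 3223, 4069 and 3466 in PBS cells, 3629, 3417 and 2637 in cNSF cells, and 3797, 5203 and 3163 in fNSF cells. The highest library after tBHP was the second of fNSF at 5203, still below the lowest without it, the first of cNSF at 5419. CDK6 fell by 42.8% in PBS cells (log2 change −0.81 ± 0.14 SE, adjusted p = 0.00012, limma), fell by 45.0% in cNSF cells (−0.86 ± 0.14, adjusted p = 6.6e-05) and fell by 39.0% in fNSF cells (−0.71 ± 0.14, adjusted p = 0.00052). With the trend of each library on transcript GC content and length removed, the log2 changes were smaller, at −0.43, −0.37 and −0.47.

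CDK4 (chr12:57747727-57756013, minus strand) was the steadier kinase of the pair. Without tBHP, its normalized counts were 3883, 3797 and 3823 in PBS cells, 4023, 3782 and 3779 in cNSF cells, and 3987, 3804 and 3847 in fNSF cells. After tBHP, they were 3868, 3796 and 3774 in PBS cells, 3882, 4092 and 4402 in cNSF cells, and 3871, 3436 and 4101 in fNSF cells. The log2 change was −0.0082 ± 0.066 SE in PBS cells, with a 95% interval of −0.15 to 0.13, and it was 0.094 ± 0.066 in cNSF cells and −0.032 ± 0.066 in fNSF cells (adjusted p = 0.93, 0.25 and 0.73, limma). TSPAN31, which encodes a tetraspanin on the other strand, shares 43.2% of the exon bases of CDK4 and was at 291 normalized counts in PBS cells without tBHP and 363 after it. CDK6 made up 25.8% to 30.9% (median 29.5%) of the level of CDK4 and CDK6 per kilobase without tBHP, and 13.4% to 28.1% (median 19.2%) after it. Those ranges overlapped through the second fNSF library at 28.1%, and the other 8 libraries after tBHP were at or below 21.7%. With the GC and length trend removed, the log2 changes of CDK6 and CDK4 in PBS cells were −0.43 and −0.21, closer to each other than the −0.81 and −0.0082 of the values as deposited, and CDK4 then passed the test as lower in all 3 pre-incubations.

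CDK2, the partner of the E-type cyclins (chr12:55966769-55972784, plus strand), did not pass the test either as first fitted. Without tBHP, its level in normalized counts was 2518, 2357 and 2306 in PBS cells, 2402, 2572 and 2415 in cNSF cells, and 2333, 2421 and 2469 in fNSF cells. After tBHP, it was 2385, 2682 and 2655 in PBS cells, 2389, 2460 and 2315 in cNSF cells, and 2510, 2767 and 2321 in fNSF cells. The log2 change was 0.10 ± 0.071 SE in PBS cells (95% interval −0.046 to 0.25), −0.044 ± 0.071 in cNSF cells and 0.069 ± 0.071 in fNSF cells (adjusted p = 0.24, 0.62 and 0.46, limma). Other settings called CDK2 in opposite directions. The edgeR test called it higher in PBS cells (log2 change 0.17), where the edgeR median over all genes tested was 0.075, against 0.0043 with limma. With the GC and length trend removed, CDK2 passed as lower in cNSF cells (−0.13) and was at −0.037 in fNSF cells. The antisense gene AC025162.1 shares 14.5% of the exon bases of CDK2 on the other strand and was not in the expression table.

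**Figure D1:**
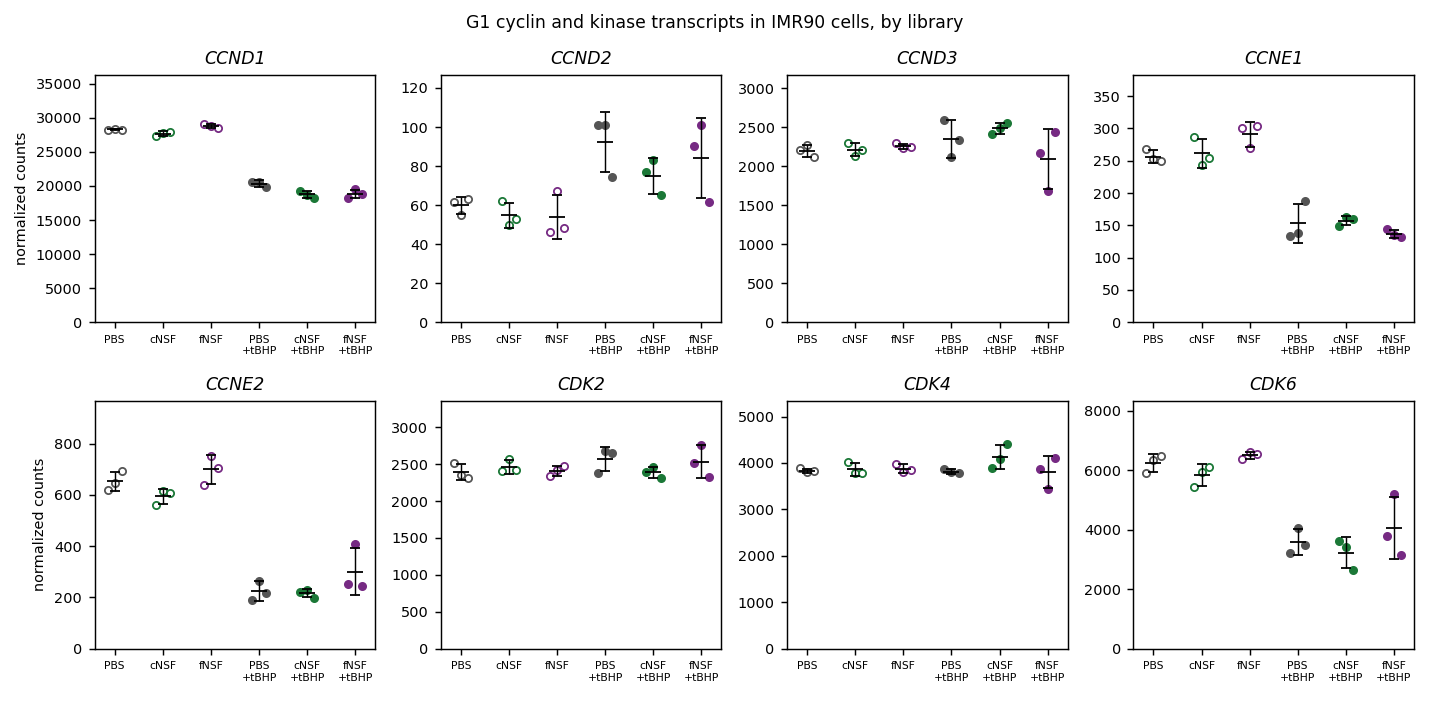
Normalized counts (vertical axes, from 0) of the 8 transcripts in each of the 18 libraries by group, with open points for libraries without tBHP, filled points for libraries after it, and bars for the mean ± SD of 3 libraries. CCND1, CCNE1, CCNE2 and CDK6 lay lower in all 9 libraries after tBHP than in all 9 without it, and CCND2, CCND3, CDK2 and CDK4 overlapped.

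Counted over the members, 1 rose and 4 fell in PBS cells, where 24.2% of the genes tested rose and 26.9% fell (51.1% in either direction). In cNSF cells 0 rose and 4 fell, against 24% and 26.8% of the genes tested (50.8% in either direction). In cNSF cells 5 of 8 members had an unadjusted p under 0.05 (limma), as had 56.7% of the genes tested, the fifth member being CCND2. There edgeR called 1 member and 3940 of 13686 genes higher, and DESeq2 called 0 members and 3428 genes higher. In fNSF cells 1 rose and 4 fell, against 19.2% and 22.7% (41.9% in either direction). The members that fell in each pre-incubation were CCND1, CCNE1, CCNE2 and CDK6, and each stayed called in that direction under all 18 alternatives tried for each response, edgeR and DESeq2 on the recovered reads included. The median log2 change of the 8 members was −0.24 in PBS cells, −0.30 in cNSF cells and −0.37 in fNSF cells, against 0.0043, −0.00053 and −0.034 for all genes tested. Groups without overlap were seen for 5, 6 and 4 of the 8 members in PBS, cNSF and fNSF cells. Of the genes tested, 31.8% were higher and 32% lower without overlap after tBHP in cells given PBS, 31.4% and 32.3% in cells given cNSF, and 22.6% and 26.2% in cells given fNSF.

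**Figure D2:**
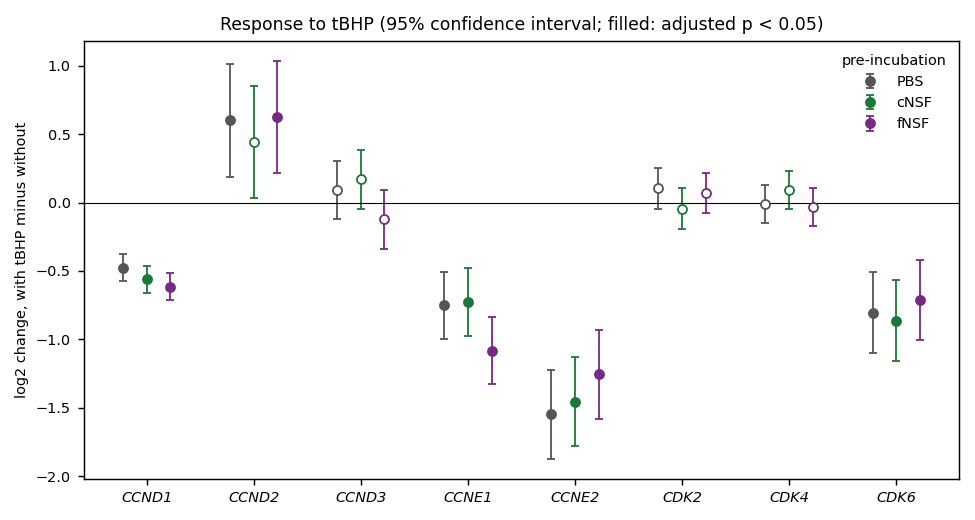
Log2 change of each member, libraries after tBHP minus libraries without (vertical axis), for cells pre-incubated with PBS, cNSF or fNSF, with 95% confidence intervals and filled points where the adjusted p was under 0.05. The changes of CCNE2 ran from −1.55 to −1.26, those of CCND2 were above 0, and the intervals of CDK2 and CDK4 all included 0.

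Levels of different genes were compared per kilobase of exons. In PBS cells without tBHP the order was CCND1 (5856 ± 26.5 SD normalized counts per kilobase, n = 3), CDK4 (1210.3 ± 13.9), CDK2 (615 ± 28.4), CDK6 (509 ± 24.2), CCND3 (379 ± 13.4), CCNE2 (149 ± 8.25), CCNE1 (100.5 ± 3.89) and CCND2 (8.38 ± 0.60). No neighbours in this order overlapped among the 3 libraries. After tBHP in PBS cells CCND3 (405 ± 41.6) stood above CDK6 (292 ± 35.5), and CCNE1 (60.2 ± 11.8) and CCNE2 (51.1 ± 8.64) overlapped. The places of CCND3 and CDK6 without tBHP were exchanged when the longest transcript was taken as the length. CCND1 was above 99.3% of the 12532 genes with a length per kilobase, and CCND2 above 9.74%.

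**Figure D3:**
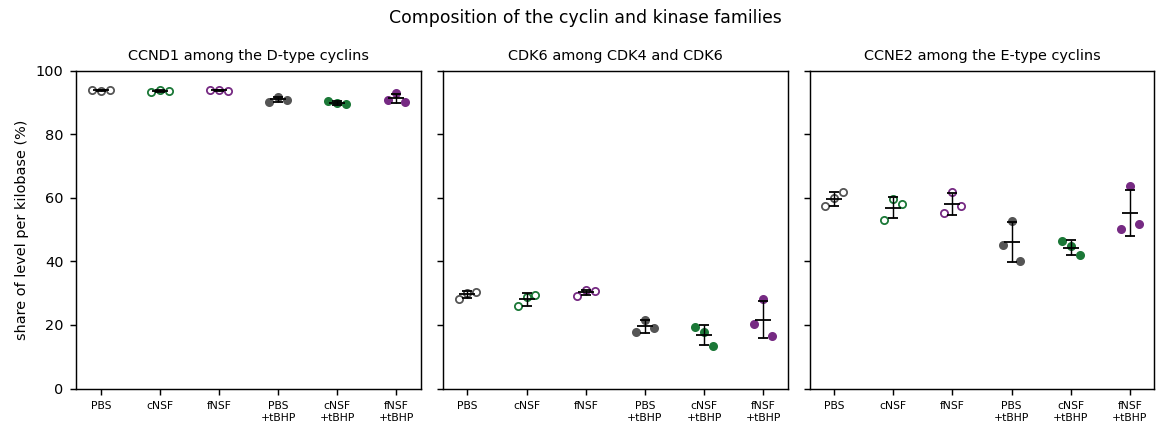
Share (%) of the level per kilobase of exons that CCND1 takes of the D-type cyclins, CDK6 of CDK4 and CDK6, and CCNE2 of the E-type cyclins, in each library by group, with the mean ± SD of 3 libraries. The median share went from 93.8% to 90.4% for CCND1, from 29.5% to 19.2% for CDK6 and from 58.1% to 46.3% for CCNE2.

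The comparison between HA preparations addresses whether polymer length matters. Without tBHP, 0 of 8 members passed the test in cNSF cells against PBS, in fNSF cells against PBS or in cNSF cells against fNSF cells, where 0% of the genes tested passed in each (limma). At an unadjusted p under 0.05, there were 0 members and 126, 109 and 206 genes (0.92%, 0.80% and 1.51% of the genes tested), respectively. Fits of only the compared groups gave 1494, 1174 and 2836 genes at that p (limma). The 0 calls of the fit to all 18 libraries therefore do not show that differences were absent. The edgeR test called 0 genes in all 3 comparisons, and DESeq2 called 0, 3 and 0. The member differences ran from −0.13 (CCNE2) to 0.041 (CDK2) for cNSF against PBS, from −0.17 (CCND2) to 0.18 (CCNE1) for fNSF against PBS, and from −0.23 (CCNE2) to 0.040 (CCND2) for cNSF against fNSF on the log2 scale. With 1 library left out, the largest difference of a member, in either direction, lay between 0.093 (without PBS replicate 3) and 0.22 (without cNSF replicate 1) for cNSF against PBS, and between 0.15 (without fNSF replicate 3) and 0.34 (without fNSF replicate 2) for fNSF against PBS. For cNSF against PBS, CCND1 and CCNE2 were lower without overlap (8.33% of the genes tested) and no member was higher (6.89%). For fNSF against PBS, CCND1 and CCNE1 were higher without overlap (9.17%) and no member was lower (4.82%). For cNSF against fNSF, CCND1, CCNE2 and CDK6 were lower in all 3 cNSF libraries than in all 3 fNSF libraries (17.1% of the genes tested) and no member was higher (7.91%). The CDK6 difference was −0.16 ± 0.14 SE and the CCNE2 difference −0.23 ± 0.16. These SEs use 1 spread shared by all 18 libraries, and replicates lay further apart after tBHP than without it. Fitted on only the 6 libraries of cNSF against fNSF without tBHP, the SEs were 0.033 for CDK6 and 0.059 for CCNE2. Both then passed the test (adjusted p = 0.0028 and 0.013, limma), in a fit that called 980 genes.

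After tBHP, 0 of 8 members passed for cNSF against PBS (0% of the genes tested), 0 for fNSF against PBS (0.139%, with 0.117% higher and 0.0219% lower) and 0 for cNSF against fNSF (0%). At an unadjusted p under 0.05, limma gave 1, 2 and 3 members and 1183, 3102 and 4412 genes. The edgeR test called 0, 36 and 0 genes and no member, and DESeq2 called 5, 442 and 923 genes, with CCNE2 the only member, in cNSF against fNSF. Over the members the log2 differences ran from −0.29 (CCND2) to 0.11 (CDK4) for cNSF against PBS, and from −0.17 (CCND3) to 0.39 (CCNE2) for fNSF against PBS. The latter CCNE2 difference had an SE of 0.16 (adjusted p = 0.17, limma) and groups that overlapped. The log2 difference of CCND1 from PBS cells was −0.12 ± 0.048 SE in cNSF cells (adjusted p = 0.56, limma) and −0.11 ± 0.048 in fNSF cells (adjusted p = 0.19). Its 3 libraries in each HA group were below all 3 PBS libraries, and 5.01% and 5.11% of the genes tested were lower without overlap in those comparisons. The same 3 PBS libraries enter both. CDK4 was higher without overlap in cNSF cells than in PBS cells (log2 difference 0.11 ± 0.066, adjusted p = 0.63), as were 4.57% of the genes tested, and no member was higher without overlap in fNSF cells (6.86%).

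For cNSF against fNSF after tBHP, the differences were −0.43 ± 0.16 SE for CCNE2, −0.31 ± 0.14 for CDK6, −0.14 ± 0.20 for CCND2, −0.082 ± 0.071 for CDK2, −0.0055 ± 0.048 for CCND1, 0.12 ± 0.066 for CDK4, 0.20 ± 0.12 for CCNE1 and 0.26 ± 0.10 for CCND3 on the log2 scale. The smallest adjusted p was 0.098, of CCNE2 (limma). CCNE1 and CCNE2 were the members whose groups did not overlap, CCNE1 higher in cNSF cells (as 5.07% of the genes tested) and CCNE2 lower (as 8.29%). Neither difference passed the test.

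The sizes of the CCNE2, CDK6, CCND3, CDK4, CCND2 and CDK2 differences moved with single libraries (CDK2 from −0.14 without fNSF replicate 3 to −0.016 without fNSF replicate 2 after tBHP), while that of CCNE1 stayed between 0.17 and 0.23 with any 1 library left out. The second fNSF library after tBHP deviated from the mean of the 9 libraries after tBHP by 0.75 for CCNE2 and 0.55 for CDK6 on the log2 scale, and by −0.45 for CCND3 and −0.18 for CDK4. Transcript GC content is 36.9% for CCNE2 and 39.5% for CDK6, the lowest of the members, and 56.2% for CCND3 and 53.6% for CDK4, the highest (median of the genes tested 48.3%). In the same library the genes of the lowest GC group (3 groups of equal size) deviated from the mean of the 3 fNSF libraries by a median of 0.22 and those of the highest by −0.32. The third fNSF library after tBHP went the other way, with −0.20 and 0.25. Without fNSF replicate 2 after tBHP, the CCNE2 difference between cNSF and fNSF cells was −0.19 and that of CDK6 −0.12. Without fNSF replicate 3 after tBHP, they were −0.56 and −0.47, 4 members passed the test (CCND3 and CDK4 higher, CCNE2 and CDK6 lower in cNSF cells) and 5586 genes did. Without the same library, fNSF against PBS after tBHP had 2 members called (CCNE2 higher, CCND3 lower) and 4024 genes. With the trend of each library on transcript GC content and length removed, the CCNE2 difference between cNSF and fNSF cells was −0.15 and that of CDK6 −0.0012, and 0 members passed.

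**Figure D4:**
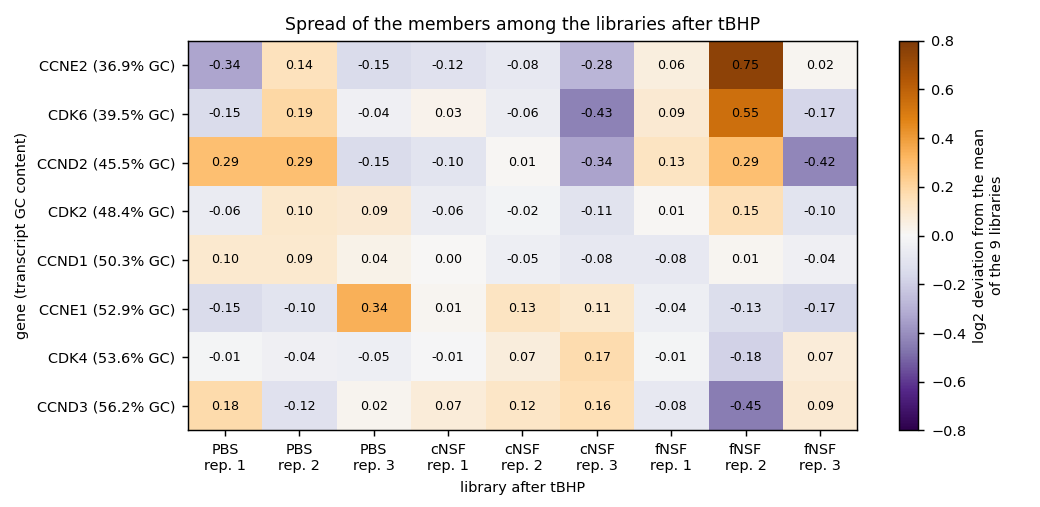
Log2 deviation of each member from its mean over the 9 libraries after tBHP (colour and printed value), with libraries across and members ordered by transcript GC content from 36.9% (top) to 56.2% (bottom). In the second fNSF library CCNE2 (0.75) and CDK6 (0.55) were high and CCND3 (−0.45) low.

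That trend also touched the response to tBHP. With it removed, the log2 change in PBS cells was −1.03 for CCNE2 and −0.43 for CDK6, against −1.55 and −0.81 without that step, and −0.94 for CCNE1 and −0.60 for CCND1, against −0.75 and −0.48. CCND3 and CDK4 then passed the test as lower in PBS and fNSF cells, and CDK2 and CDK4 in cNSF cells, at log2 changes of −0.26 to −0.13. The members called were then 7 of 8 in each pre-incubation (1 higher, CCND2, and 6 lower), where that fit called 7267, 7141 and 7130 of 12532 genes in PBS, cNSF and fNSF cells. Calls were added in the higher direction under other settings: edgeR called CDK2 in PBS cells (log2 change 0.17) and CCND2 in cNSF cells (0.51), and the fit of only the compared groups called CCND2 (0.44) and CCND3 (0.17) in cNSF cells. How far the GC-related part of the response belongs to the libraries or to the cells was not tested.

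Differences between the tBHP responses were tested as interactions. In cNSF minus PBS they ran over the members from −0.16 (CCND2) to 0.10 (CDK4), in fNSF minus PBS from −0.33 (CCNE1) to 0.29 (CCNE2), and in cNSF minus fNSF from −0.20 (CCNE2) to 0.35 (CCNE1). With 1 library left out, the largest of a member in either direction reached 0.30 for cNSF minus PBS (without PBS replicate 3 after tBHP) and lay between 0.28 and 0.42 for fNSF minus PBS. None of the 8 members passed in any of the 3, and 0 genes did by limma and by edgeR (0% of the genes tested), with 555, 942 and 533 genes at an unadjusted p under 0.05. DESeq2 called 0, 6 and 0 genes. The 95% intervals of the members reached at most from −0.76 to 0.75, and a difference as large as the CCNE2 response itself lay outside them.

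The genes around the G1 kinases were described from 7 lists of pathway genes, whose counts stand beside the 24.2% of all genes tested that rose and the 26.9% that fell in PBS cells. In either direction 3 of the 6 CDK inhibitors tested passed, a share near the 51.1% of all genes tested. Of 6 tested CDK inhibitors (CDKN1C was below the filter), 2 rose and 1 fell in PBS cells. CDKN1A, which encodes p21, was at 5231 ± 228 SD normalized counts in PBS cells without tBHP and at 43604 ± 4502 after it (n = 3 each, log2 change 3.06 ± 0.10 SE, adjusted p = 2.3e-13, limma). CDKN2B, which encodes p15, an inhibitor of CDK4 and CDK6, went from 160 ± 11.5 to 238 ± 24.6 (log2 change 0.57, adjusted p = 0.00089). The median log2 change of the list was 0.10 in PBS cells, against 0.0043 for all genes tested.

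Pocket proteins bind some of the E2F factors until G1 kinases act. The list of pocket proteins and E2F factors had 2 rises and 5 falls among 12 tested genes in PBS cells. E2F2 was below the filter, and the list median was −0.12. E2F5, which encodes a repressor type E2F, went from 78.3 ± 6.72 SD to 17.3 ± 3.97 normalized counts (log2 change −2.13, adjusted p = 2.9e-05, limma). E2F7, which encodes an atypical repressor E2F, went the other way from 2216 ± 96.4 to 4692 ± 161 (log2 change 1.08, adjusted p = 1.2e-06). Of the 18 genes of the S phase that E2F controls, 9 fell and 2 rose, with a list median of −0.17. CCNA2, which encodes the cyclin that follows cyclin E at CDK2, went from 3850 ± 79.3 to 1797 ± 133 (log2 change −1.10, adjusted p = 9.0e-10), and MCM6, of the replicative helicase, changed by −0.58 (adjusted p = 1.2e-06). Of 10 genes of G2 and mitosis, 9 fell and 0 rose in PBS cells (median −0.86). Among them CCNB1, for cyclin B1, changed by −1.16 (adjusted p = 9.2e-11) and CDC20, for an activator of the anaphase-promoting complex, by −1.06 (adjusted p = 1.9e-08). CCNA2 and CCNB1, the cyclins of later phases named here, fell in the same cells as CCNE1 and CCNE2.

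Genes that activate, inhibit or fold the G1 kinases showed 2 rises and 4 falls among 8 in PBS cells, with a list median of −0.22. CCNH, of the CDK-activating kinase, changed by −0.64 on the log2 scale (adjusted p = 4.6e-05, limma) and WEE1, which encodes an inhibitory kinase, by −0.83 (adjusted p = 1.1e-05). Of 15 genes for the turnover of G1 cyclins, 3 rose and 6 fell (median −0.09). SKP2, the F-box protein that marks p27 for destruction, went from 1181 ± 36.0 SD to 624 ± 63.5 normalized counts (log2 change −0.92, adjusted p = 2.3e-08), and CUL4B, a cullin scaffold, from 1975 ± 110 to 908 ± 120 (log2 change −1.13, adjusted p = 3.9e-07). Among 15 transcription factors linked to CCND1, 10 rose and 2 fell (median 0.38). JUND, of the AP-1 family, went from 411 ± 16.9 to 1369 ± 102 (log2 change 1.73, adjusted p = 1.1e-07), and FOS from 26.1 ± 6.34 to 86.3 ± 4.57 (log2 change 1.71, adjusted p = 2.0e-06). CCND1 itself fell in the same cells.

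**Figure D5:**
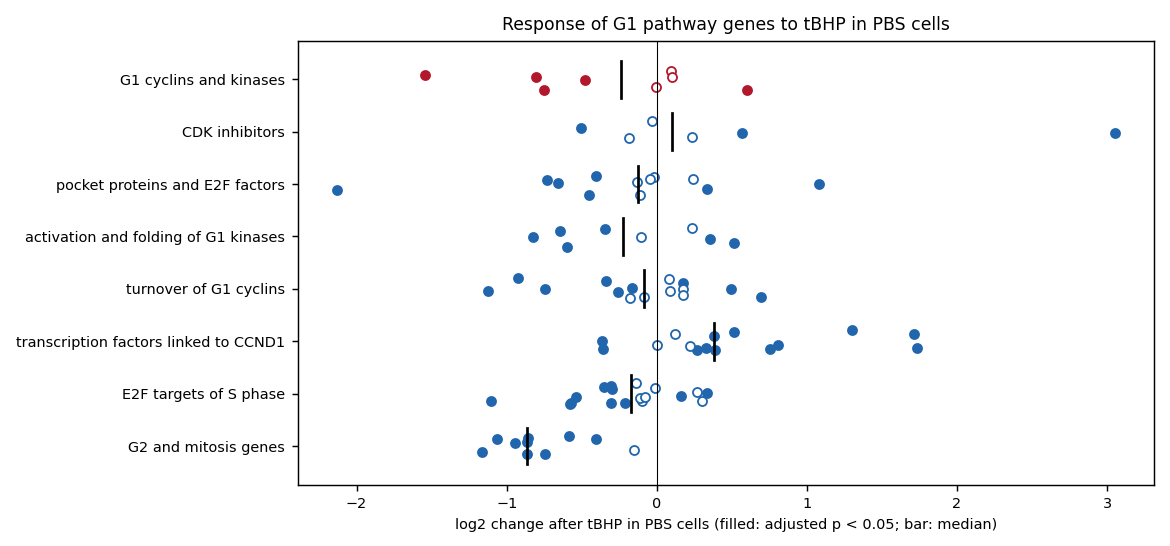
Log2 change after tBHP in PBS cells (horizontal axis) of each gene of the 8 members (top) and the 7 lists, with filled points where the adjusted p was under 0.05 and a bar at the median of each row. CDKN1A was highest at 3.06, E2F5 lowest at −2.13, and the list medians ran from −0.86 for G2 and mitosis to 0.38 for the transcription factors linked to CCND1.

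In cNSF cells 24% of the genes tested rose and 26.8% fell, and in fNSF cells 19.2% and 22.7%. CDK inhibitors had 2 rises and 1 fall in both. Pocket proteins and E2F factors had 3 rises and 6 falls in cNSF cells and 3 and 7 in fNSF cells. The genes of G2 and mitosis had 9 falls of 10 in cNSF cells and 10 of 10 in fNSF cells, and those of the S phase had 3 rises and 8 falls and 1 rise and 10 falls. Activation, inhibition and folding had 3 rises and 3 falls in cNSF cells and 2 and 3 in fNSF cells, turnover 2 and 4 and 3 and 3, and the transcription factors 10 and 1 and 7 and 1. CDKN1A changed by 3.06 in cNSF cells and 2.97 in fNSF cells.

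The genes whose levels followed each member most closely over the 18 libraries were taken from 10210 genes (10211 for CCND2) with a mean of at least 100 normalized counts, by Pearson's r of log2 values. All points share their libraries, and the contrast between the 9 libraries without tBHP and the 9 after it enters each r. They were CLDN11 (r = 0.992) and CDCA7 (0.988) for CCND1, ZKSCAN2 (0.935) and AMPD3 (0.903) for CCND2, MGAT1 (0.969) and TRIM28 (0.968) for CCND3, and PARP1 (0.974) and SPAG5 (0.970) for CCNE1. For CCNE2 they were CD47 (0.996) and SGO2 (0.995), for CDK6 CLOCK (0.996) and WNT5A (0.995), for CDK4 TMED3 (0.955) and TUBA1B (0.940), and for CDK2 FNBP4 (0.833) and ZNF594 (0.807). An r above 0.9 was reached by 1730 genes for CCNE2, 1694 for CDK6, 1050 for CCND1, 517 for CCNE1, 302 for CCND3, 18 for CDK4, 2 for CCND2 and 0 for CDK2.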

How the data were processed

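Poly(A) RNA of IMR90 cells was sequenced in 18 libraries, grouped by their labels. According to the submitters' processing notes, reads were trimmed with Trimmomatic 0.32, aligned with STAR 2.5.2b to GRCh38.p7, counted with featureCounts (Subread 1.5.0-p3) and normalized with DESeq2. The strand and overlap settings of counting and the annotation release were not given in the sources used here. The deposited signal of a gene is its read count divided by the library's size factor. In every library 100% of the values were whole multiples of 1 read (tolerance 0.01 read). On these reads edgeR called 7281 (4058 higher and 3223 lower), 7193 (3940 and 3253) and 5919 (3306 and 2613) genes in the tBHP responses of PBS, cNSF and fNSF cells. In the same order limma called 3317 higher and 3678 lower, 3285 and 3662, and 2631 and 3102. Which direction held more genes thus depended on the method. The deposited table also holds p-value, q-value and rank columns of the authors' own test, which were not used.

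Log2(signal + 1) of the 13686 genes with a mean of at least 10 was tested with limma 3.58.1 in R 4.3.3 (mean-variance trend, 1 coefficient per group, all 18 libraries, two-sided, Benjamini-Hochberg over all genes tested, threshold 0.05), so changes of low genes are understated. The 12 comparisons were 3 tBHP responses, 6 between pre-incubations and 3 interactions. Alternatives included edgeR 4.0.16 (quasi-likelihood test) and DESeq2 1.42.0 on recovered reads, other pseudocounts, filters and scalings, a replicate block, and removal of a GC and length trend (natural splines with 5 degrees of freedom, GENCODE 29 transcripts, 12532 genes, 91.6% of those tested). Scripts were tested on simulated data. All replicate pairs differed by more than sampling noise (chi-square per degree of freedom at least 1.47).

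The members and lists were chosen with earlier results of these data known. All members are named. In each list the 2 genes with the largest change among those past the threshold in PBS cells are named, and for each member the 2 genes with the highest r. Exon lengths and overlaps came from GENCODE 29, promoters from RefSeq, whose motifs were searched on both strands. Intervals are those of the limma fit.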

Additional observations from a re-analysis of the deposited data

How the results depend on the processing

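The falls of CCND1, CCNE1, CCNE2 and CDK6 after tBHP kept their direction and their side of the threshold in all 216 refits of the 12 responses. CCND2 was called in 15 of 18 alternatives in PBS cells, 5 of 18 in cNSF cells and 13 of 18 in fNSF cells. Members called in the tBHP response ranged from 4 to 5 in PBS cells, 4 to 4 in cNSF cells and 4 to 6 in fNSF cells when 1 library was left out. The same refits called 5987 to 6739, 5921 to 6563 and 4773 to 6930 of the 13686 genes tested. In cNSF cells 7 members were called with the GC and length trend removed, with or without the replicate block (7196 and 7141 of 12532 genes). Leaving out 1 library gave 0 to 2 members for fNSF against PBS after tBHP and 0 to 4 for cNSF against fNSF after tBHP (2 and 4 without fNSF replicate 3 after tBHP). Fitting only the compared groups gave 2 members for cNSF against fNSF without tBHP, and DESeq2 gave 1 for that comparison after tBHP. The cause of these shifts was not tested.

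Counts over all genes moved by more than 1.5 times only between pre-incubations and in 1 interaction. For fNSF against PBS after tBHP (19 genes), they were 3 with no filter, 30 with a minimum mean of 50, 61 with the replicate block, 46 with the GC trend removed, 56 with both, 36 with edgeR, 442 with DESeq2, 0 with only the compared groups, and 0 to 4024 with 1 library left out. Where 0 genes passed, the highest counts were 4 (no filter) for cNSF against PBS and 21 (only the compared groups) for fNSF against PBS without tBHP, 980 (only the compared groups) for cNSF against fNSF without tBHP, 5 (DESeq2) for cNSF against PBS after tBHP, 5586 (without fNSF replicate 3 after tBHP) for cNSF against fNSF after tBHP, and 9 (1 library left out) for the interaction of fNSF and PBS.

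Signs changed only for values that did not pass the test as first fitted. With the GC and length trend removed, also with the block, CCND3 was at −0.14 in PBS and −0.098 in cNSF cells, CDK4 at −0.14 in cNSF cells and CDK2 at −0.037 in fNSF cells, and for cNSF against fNSF after tBHP CCND1 was at 0.032 and CCND2 at 0.015. With edgeR, CDK4 was at 0.057 in PBS and 0.033 in fNSF cells, CDK2 at 0.015 in cNSF cells, CCND1 at 0.019 for cNSF against fNSF after tBHP and CDK4 at 0.020 without it, where quantile normalization gave 0.036. The edgeR median of the tBHP response over all genes tested was 0.075 in PBS, 0.065 in cNSF and 0.042 in fNSF cells. With limma it was 0.0043, −0.00053 and −0.034. With 1 library left out, the response of CDK4 ranged from −0.019 to 0.00092 in PBS and from −0.089 to 0.039 in fNSF cells, and that of CCND3 from −0.24 to 0.028 in fNSF cells. For cNSF against fNSF, CCND2 ranged from −0.060 to 0.21 and CDK4 from −0.037 to 0.013 without tBHP, and CCND1 from −0.027 to 0.019 and CCND2 from −0.35 to 0.0026 after it.

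Replicate numbers did not pair the libraries (correlations of same-numbered deviations −0.12 to 0.33, and no comparison with all 3 above 0.1). With the replicate block, CCND2 was also called in cNSF cells (5 members in all), and no other call of a member changed. With 3 libraries a group, the SE of a difference between 2 groups ran from 0.048 (CCND1) to 0.20 (CCND2) over the members and that of an interaction from 0.068 to 0.28, which limits the differences that can be seen.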
